A study of Rattus norvegicus with 9 samples.

Results

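Islets from rats taken off rosiglitazone were compared with islets from rats still on the drug. The comparison took 6 of the 9 Affymetrix rat genome arrays of the study, chosen by their labels: 3 arrays of the withdrawal group and 3 of the treated group. All animals were male Zucker Diabetic Fatty (fa/fa) rats on one Purina diet, and islet RNA was measured. The treated group had eaten powdered Avandia tablets, 3 mg of rosiglitazone per kg body weight, from week 5 and was sampled at 9 weeks of age. The withdrawal group had the same dose from week 5 to week 9, then 2 weeks without it, and was sampled at 11 weeks. The remaining 3 arrays came from rats never given the drug, at 13 weeks. Drug withdrawal and an age difference of 2 weeks coincided, so the effect of either cannot be told apart here. Each array is labelled a biological replicate, and whether it held RNA of 1 rat is not given in the sources used here.

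Fa/fa rats carry a defective leptin receptor, become obese, and lose glucose control as their beta cells fail. Rosiglitazone activates PPAR gamma, a nuclear receptor that switches on fat storage genes in adipose tissue and makes peripheral tissues respond better to insulin. Islets hold insulin-secreting beta cells together with glucagon, somatostatin and pancreatic polypeptide cells, and their hormones are folded in the endoplasmic reticulum (ER), packed into granules and released by exocytosis. The labelled tissue carried its defining markers: the insulin genes Ins1 and Ins2 read between 14.07 and 14.36 on the log2 scale on all 9 arrays. Acinar (digestive enzyme) markers were also bright, with a mean over 23 genes of 12.99 to 13.35 per array, so RNA of exocrine cells was present on every array. In such bulk samples, fewer cells of a type and less RNA per cell cannot be told apart.

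The deposited log2 values did not have one common spread. Their standard deviation over probe sets was 1.84 to 2.00 on treated, 1.65 to 1.72 on withdrawal and 1.66 to 1.77 on untreated arrays. The array medians were close, at 5.74 to 5.78 on treated, 5.79 to 5.81 on withdrawal and 5.76 to 5.79 on untreated arrays. The 18 bacterial control probe sets, which carry no islet RNA, were all lower on withdrawal than on treated arrays, by 0.46 to 1.03 (median difference -0.84). Their mean was 9.79, 10.66 and 10.50 on the treated arrays and 9.13, 9.52 and 9.88 on the withdrawal arrays, so treated replicate 1 lay within the withdrawal range. On the untreated arrays it was 9.87, 9.54 and 9.83. The labels do not state that these controls were added in fixed amounts. The difference between the 3' and 5' probe sets of actin, a sign of RNA integrity, was 0.71 to 0.89 on treated and 0.95 to 1.06 on withdrawal arrays. On untreated arrays it was 0.97 to 1.12. The same difference for Gapdh overlapped, at 0.57 to 0.70 and 0.56 to 0.87. Because the arrays differed in spread, each difference is given as deposited and again after quantile normalization, which forces 1 distribution on all 9 arrays. A gene or probe set is said to have risen or fallen only if it passed on both scales, that is, with a limma adjusted p under 0.05 and the same sign on each. Differences are in log2, withdrawal minus treated; where a pair is given, the first is as deposited and the second after quantile normalization. The part of array spread, control levels and RNA integrity in these results was not tested.

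Very many probe sets differed. As deposited, 10707 of 31042 probe sets (34.5%) differed between withdrawal and treated arrays, 3615 (11.6%) higher and 7092 (22.8%) lower after withdrawal. After quantile normalization 7569 (24.4%) differed, 3773 (12.2%) higher and 3796 (12.2%) lower, so that 49.8% of calls were higher against 33.8% as deposited. On both scales 6057 probe sets (19.5%) passed, of which 2816 (9.07%) rose and 3241 (10.4%) fell. With 1 probe set for each of 14217 genes, 1100 genes (7.74%) rose and 1698 (11.9%) fell. Of these genes, 9.28% were higher and 31.4% lower as deposited, and 12.3% and 13.0% after quantile normalization. Without withdrawal replicate 1 the count of probe sets passing on both scales was 3267, and without withdrawal replicate 2 it was 2689. The surplus of lower values as deposited lay among bright probe sets: the median difference was -0.67 in the brightest decile, of which 72.3% were called lower, and 0.06 in the dimmest. After quantile normalization the median in the brightest decile was -0.04. The shares passing on both scales still followed brightness. In the brightest decile 1.35% of probe sets rose and 8.95% fell, and in decile 5 14.6% rose and 10.6% fell. The shares over all genes set beside the lists below are not matched for brightness, so few rises are usual among bright genes such as those of beta cells.

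**Figure D1:**
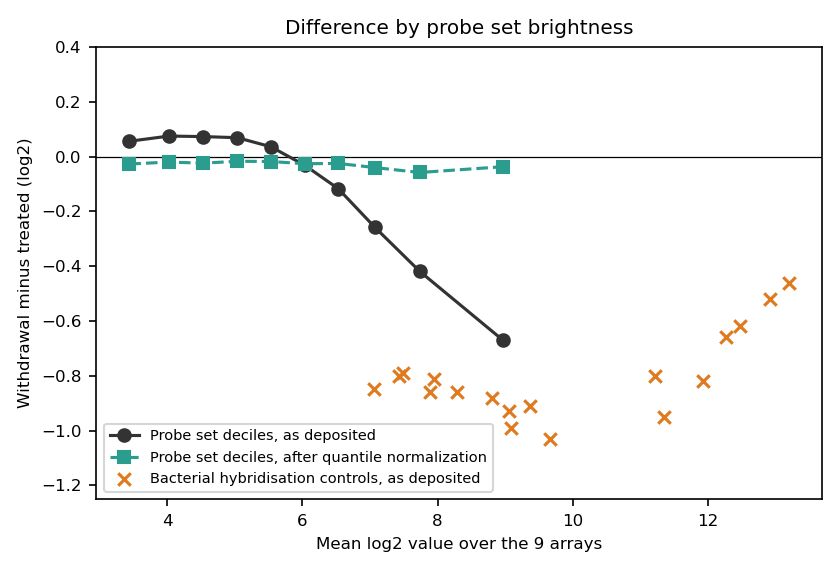
Median log2 difference (withdrawal minus treated) in 10 equal groups of probe sets ordered by mean log2 value over the 9 arrays, as deposited (black circles) and after quantile normalization (green squares), with the 18 bacterial control probe sets as deposited (orange crosses). As deposited the difference goes from 0.06 in the dimmest group to -0.67 in the brightest, and the controls lie between -0.46 and -1.03.

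The 12 leading genes, ranked by the smaller of their differences on the 2 scales, rose by 1.38 to 2.12 as deposited and by 1.41 to 2.65 after quantile normalization. Grm8, a metabotropic glutamate receptor, read 7.52, 8.06 and 8.40 on treated arrays, 10.25, 10.26 and 9.82 on withdrawal arrays and 9.65, 10.01 and 9.54 on untreated arrays. Its treated arrays were all lower than the other 6, and the difference between withdrawal and treated arrays was 2.12 ± 0.22 (SE, n = 3 against 3, limma adjusted p = 0.000472). Casq1, the calcium store protein calsequestrin, read 5.32, 5.49 and 5.21 on treated and 7.47, 7.39 and 7.09 on withdrawal arrays, a 3.93-fold rise. Trhr, the receptor for thyrotropin-releasing hormone, went from 4.19 to 4.82 on treated arrays to 5.90 to 6.36 on withdrawal arrays (difference 1.66 ± 0.23 SE, limma adjusted p = 0.000958). Trpv1, a heat- and capsaicin-gated cation channel, rose 2.83-fold, and Slc24a4, a sodium, potassium and calcium exchanger, 2.79-fold. The others were Ly6al, Stk36, Ankrd60, Nacc2, Dgkk, Gbx2 and Hccs, which encode a Ly6 family protein, a serine/threonine kinase, an ankyrin repeat protein, a transcriptional repressor, a diacylglycerol kinase, a homeobox factor and the enzyme that attaches haem to cytochrome c. By the way they were chosen, the withdrawal and treated values of the 12 did not overlap; over all genes this held for 52.2% as deposited and 42.5% after quantile normalization. Each call held when any 1 of the 9 arrays was left out. A mean log2 value under 7 was found for 9 of the 12, but the lower 7 of 10 equal brightness groups of all probe sets also lay below 6.79. Only Grm8 had a further probe set that rose. Ankrd60, Nacc2, Slc24a4, Gbx2 and Hccs each had a further probe set with the opposite sign as deposited, none of them called.

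The 12 leading genes in the other direction fell by 1.09 to 1.93 as deposited and by 1.10 to 1.41 after quantile normalization. Mt1, a metal-binding metallothionein, read 6.53, 7.40 and 6.56 on treated arrays and 5.75, 5.39 and 5.00 on withdrawal arrays, a difference of -1.45 ± 0.24 (SE, n = 3 against 3, limma adjusted p = 0.00167). Rapgef4, the cyclic AMP sensor Epac2 that acts in insulin secretion, fell from 6.20 to 6.90 on treated arrays to 5.07 to 5.39 on withdrawal arrays. Chic1, which encodes a membrane protein, read 9.30, 8.87 and 8.72 on treated and 7.57, 7.22 and 7.31 on withdrawal arrays and fell by 1.60. Slc6a17, a vesicular transporter of neutral amino acids, fell by 1.46, and Acadsb, which oxidises branched-chain acyl-CoA, fell by 1.27 after quantile normalization. The list was completed by Tceal1, Slc35d3, Sst, Etv1, Rab40b, Cnot7 and Irx1. All 12 kept their calls whichever array was left out. Here 8 of 12 had a mean log2 value under 7, again a level below which most probe sets lay. Further probe sets existed for 4 of the 12, and for 2 of these at least 1 fell as well. A second probe set of the homeobox gene Irx1 was called the opposite way on both scales, so its direction is uncertain, while all 4 further probe sets of Etv1 fell too.

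Between withdrawal and untreated arrays the difference of these genes was between 0.07 and 0.57 for the 12 higher genes and between -0.77 and 0.05 for the 12 lower genes. None of the 24 passed in that comparison (smallest limma adjusted p 0.375), in which 0.0902% of all probe sets passed as deposited, so this count is not particular to them. This comparison shares the withdrawal arrays with the one above, so its values are only set beside it.

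**Figure D2:**
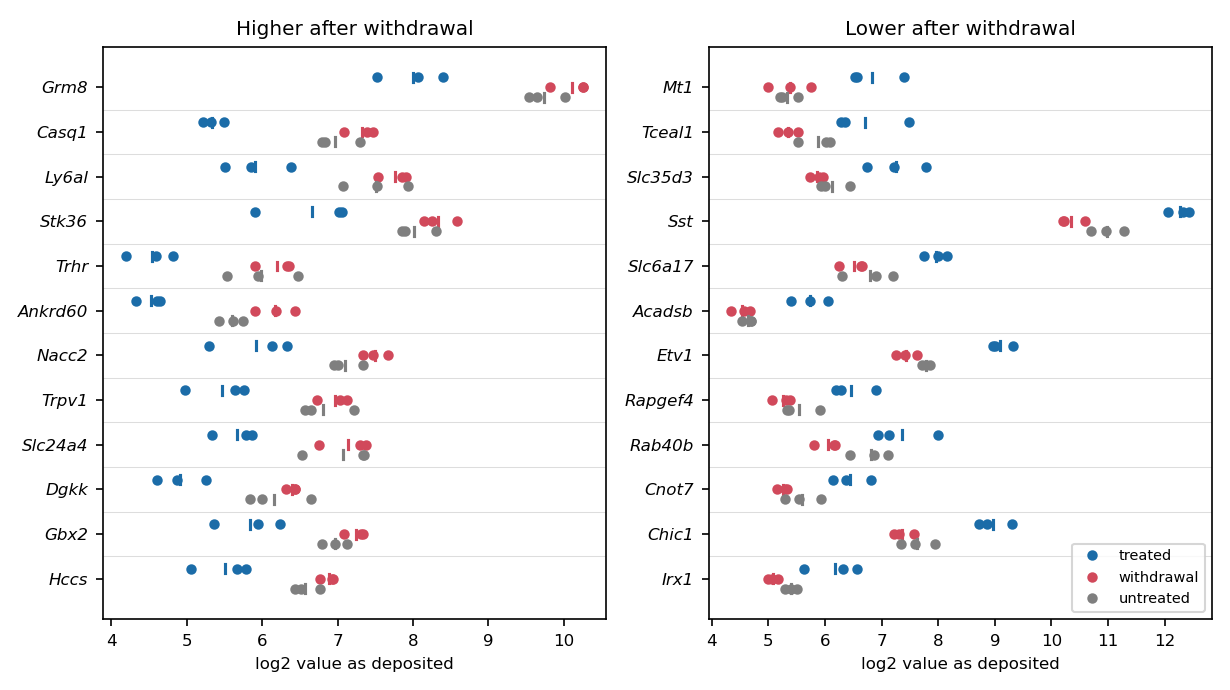
Deposited log2 values (horizontal axis) of the 12 leading genes that rose and the 12 that fell between treated and withdrawal arrays. Each dot is 1 array and each vertical tick a group mean; treated arrays are blue, withdrawal arrays red and untreated arrays grey. For Grm8 the treated arrays read 7.52 to 8.40 and the withdrawal arrays 9.82 to 10.26.

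Of 9 measured genes of the other islet hormone cells, 4 of the hormones (Sst, Gcg, Pyy and Ppy) and the transcription factor gene Etv1 fell and none rose (11.9% and 7.74% of all genes). The median over the 9 was -0.76 as deposited and -0.58 after quantile normalization, against -0.18 and -0.04 over all genes. Sst, the somatostatin of delta cells, read 12.43, 12.33 and 12.05 on treated, 10.20, 10.23 and 10.59 on withdrawal and 11.28, 10.69 and 10.97 on untreated arrays. The treated arrays stood clear of both other groups, and the withdrawal minus treated difference of Sst was -1.93 ± 0.17 (SE, n = 3 against 3, limma adjusted p = 0.000432) in the deposited values and -1.21 after quantile normalization. Pyy, a peptide of the pancreatic polypeptide family, read 11.27, 10.84 and 10.94 on treated and 9.57, 9.62 and 9.75 on withdrawal arrays (differences -1.37 and -0.60). Gcg, the glucagon gene, read 13.82, 13.55 and 13.59 on treated and 13.00, 12.75 and 12.91 on withdrawal arrays, near the top of the scale. Its difference was -0.76 ± 0.15 (SE, n = 3 against 3, limma adjusted p = 0.00332) in the deposited values and -0.58 after quantile normalization, but 0.16 (adjusted p = 0.403) under cyclic loess, another normalization tried after the data were seen. Ppy, pancreatic polypeptide, read 13.12 to 13.20 on treated and 11.49, 12.06 and 12.48 on withdrawal arrays. Its call after quantile normalization was lost without withdrawal replicate 1 (adjusted p = 0.0636), and under cyclic loess its difference was -0.25 (adjusted p = 0.411). Etv1 fell by 1.66 and 1.18.

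Of 18 measured genes of beta cell identity and function, 9 fell, 9 did not pass and none rose (11.9% of all genes fell), with a median difference of -1.01 as deposited and -0.35 after quantile normalization. Pax6, a paired homeobox factor needed for islet hormone production, read 10.17, 9.61 and 9.65 on treated, 8.41, 8.15 and 8.50 on withdrawal and 8.86, 8.47 and 8.69 on untreated arrays. No withdrawal array reached the treated range, and the difference was -1.46 ± 0.17 (SE, n = 3 against 3, limma adjusted p = 0.000658) in the deposited values and -0.82 after quantile normalization. Nkx6-1, a homeobox factor that keeps beta cells distinct, read 9.29, 9.36 and 9.27 on treated arrays and 8.01, 7.92 and 8.24 on withdrawal arrays, and fell by 1.25 and 0.70. Pdx1, the factor that switches on the insulin gene, read 8.61, 8.46 and 8.54 on treated, 7.35, 7.46 and 7.60 on withdrawal and 8.04, 7.75 and 7.99 on untreated arrays. Its withdrawal values were the lowest of the 3 groups, with a difference from treated arrays of -1.07 ± 0.12 (SE, limma adjusted p = 0.000569). Its difference from untreated arrays, -0.46, did not pass (adjusted p = 0.346). Nkx2-2, a further homeobox factor, fell by 1.07 and 0.53, and Cltrn, the beta cell membrane protein collectrin, by 1.44 and 0.68. These 5 calls held in all 9 fits that left out an array.

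The remaining 4 beta cell calls were Neurod1, Foxa2, Mafa and Kcnj11. Neurod1, Foxa2 and Mafa are transcription factors of mature islets, and Kcnj11 is the pore of the ATP-sensitive potassium channel that couples glucose to insulin release. As deposited Neurod1 fell by 1.18, Kcnj11 by 1.14 and Mafa by 1.08, and Foxa2 went from 9.16 to 9.24 on treated arrays to 7.96 to 8.40 on withdrawal arrays. After quantile normalization the differences were -0.39 for Neurod1, -0.45 for Foxa2, -0.31 for Mafa (adjusted p = 0.0471) and -0.43 for Kcnj11. On that scale Mafa lost its call in 8 of the 9 fits (all but that without treated replicate 2, with adjusted p up to 0.152), and under cyclic loess its adjusted p was 0.0541. Neurod1 lost its call without treated replicate 2 or 3 or any 1 withdrawal array (adjusted p up to 0.128). Foxa2 lost it without treated replicate 2 or 3 or withdrawal replicate 1 or 2 (up to 0.117), and Kcnj11 without withdrawal replicate 2 (0.0655). The glucose transporter gene Slc2a2 was lower as deposited (-1.01, adjusted p = 0.000883) and did not pass after quantile normalization (-0.30, adjusted p = 0.0979). Without withdrawal replicate 2 the count of beta cell genes that fell was 5.

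Ins1 read 14.15 to 14.27 on treated and 14.07 to 14.14 on withdrawal arrays, Ins2 14.25 to 14.36 and 14.16 to 14.20. Neither passed as deposited (differences -0.10 and -0.12, limma adjusted p = 0.470 and 0.362), and neither passed once the arrays were quantile normalized (0.790 and 0.708). Iapp, the amylin gene released with insulin, differed by -0.34 (adjusted p = 0.0678). Under cyclic loess these 3 genes had the opposite sign and passed, at 0.84, 0.82 and 0.59. They lie at the top of the scale, where the direction turned with the normalization and where a difference in RNA may go unmeasured.

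**Figure D3:**
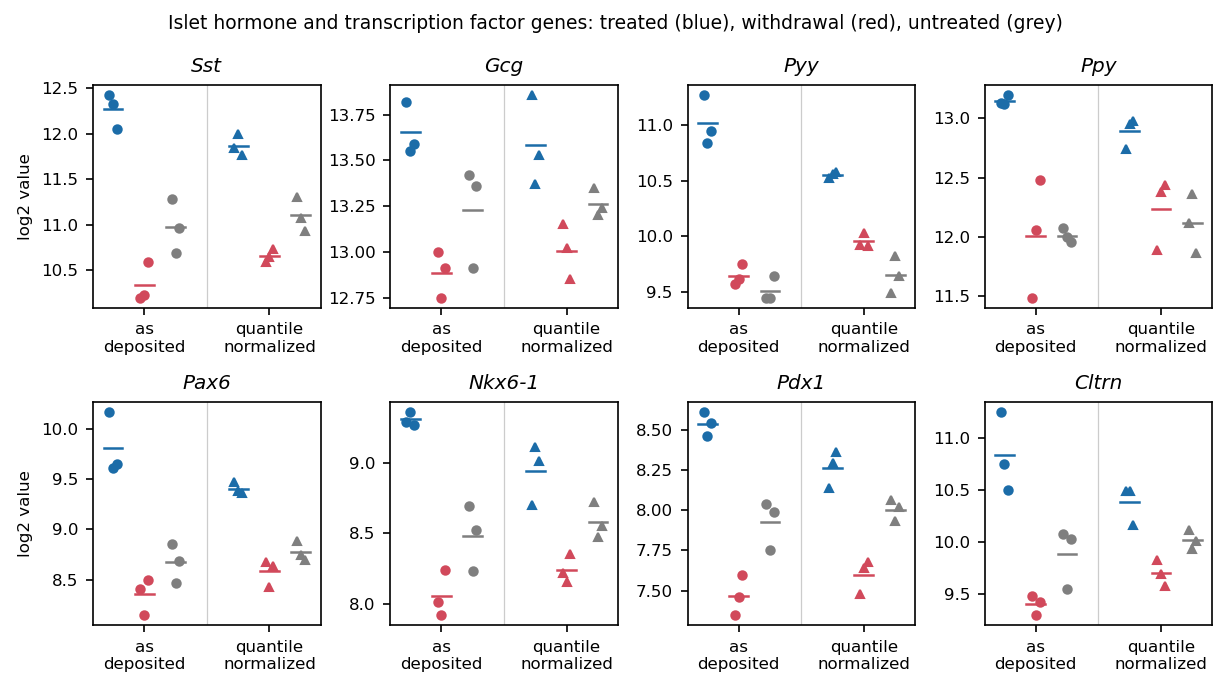
Log2 values of 8 islet genes per array, as deposited (circles) and after quantile normalization (triangles), each panel with its own vertical axis; horizontal bars are group means of 3 arrays. Treated arrays are blue, withdrawal arrays red and untreated arrays grey. For all 8 genes no withdrawal value reaches the treated range on either scale; Pdx1 reads 8.46 to 8.61 on treated and 7.35 to 7.60 on withdrawal arrays as deposited. The 8 were drawn with their values known, and 52.2% of all genes as deposited and 42.5% after quantile normalization do not overlap.

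Of 24 measured genes of the secretory granule and exocytosis, 7 fell and 1 rose (11.9% and 7.74% of all genes), with medians of -0.74 and -0.24. Pcsk1n, which encodes the granule protein proSAAS, read 12.36, 12.22 and 12.14 on treated and 10.92, 10.88 and 11.15 on withdrawal arrays, 2.38-fold lower as deposited (limma adjusted p = 0.000608) and 1.42-fold lower after quantile normalization. Scg2, a granin of the granule core, read 12.76 to 12.94 on treated and 11.68 to 11.95 on withdrawal arrays and fell by 1.04 and 0.50. Pcsk2, a prohormone convertase that matures glucagon and insulin, fell by 1.05 and 0.42. Under cyclic loess the differences of Scg2 and Pcsk2 were -0.16 and -0.19 and did not pass (adjusted p = 0.346 and 0.209), and without withdrawal replicate 2 Pcsk2 did not pass after quantile normalization (0.0546). Of the release machinery, Rab27a and Rab3a, small GTPases on granules, fell by 1.04 and 0.96 as deposited. The membrane fusion protein gene Stx1a and the priming factor gene Unc13a fell by 0.54 and 0.55. Rab3a lost its call after quantile normalization without withdrawal replicate 2 (adjusted p = 0.0537). Vgf went the other way: this neuropeptide precursor read 5.97, 5.31 and 5.48 on treated and 6.33, 6.26 and 6.53 on withdrawal arrays, a rise of 0.79 (limma adjusted p = 0.00428) and 0.81.

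Genes of ER protein folding and quality control were called lower in nearly all cases as deposited, and in fewer after normalization. As deposited 27 of 29 were called lower (31.4% of all genes), with a median of -0.85. After quantile normalization the median was -0.16. On both scales 8 fell (27.6%, against 11.9% of all genes): Sdf2l1, Wfs1, Hspa13, Dnajb9, Dnajc3, Canx, Pdia3 and Edem1. Sdf2l1, a partner of the chaperone BiP, read 11.23, 10.65 and 10.73 on treated, 9.68, 9.49 and 9.72 on withdrawal and 8.95, 8.92 and 9.28 on untreated arrays. Its withdrawal values lay between those of the other groups, and the difference from treated arrays was -1.24 ± 0.16 (SE, n = 3 against 3, limma adjusted p = 0.000821) in the deposited values and -0.48 after quantile normalization. Wfs1, the ER membrane protein wolframin, read 7.78, 7.83 and 7.87 on treated and 6.93, 7.03 and 6.69 on withdrawal arrays and fell by 0.94 and 0.66. Hspa13, an Hsp70-type chaperone, fell by 1.06 and 0.46. These 3 calls held without any 1 array, but the other 5 did not. The count was 3 without treated replicate 2, treated replicate 3 or withdrawal replicate 2, 5 without withdrawal replicate 1 or 3 or untreated replicate 1 or 3, and 4 with all untreated arrays left out. The chaperones Hspa5 (BiP) and Hsp90b1 (GRP94) were lower as deposited (-0.81 and -0.67) but did not pass after quantile normalization (-0.11 and 0.03). Under cyclic loess they stood at 0.04 and 0.19, and Pdia3 did not pass (adjusted p = 0.0547).

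Some promoters of this list carry a known motif, shown here because most listed genes were lower as deposited. Most respiratory chain and ribosomal protein genes were lower as deposited too. The ER stress element, searched on both strands as CCAAT and CCACG with 9 bases of any kind between them, is read by the unfolded protein response factors ATF6 and XBP1. It was found in 7 of 22 list genes with a promoter in RefSeq's GRCr8 table (31.8%) and in 21 of 27457 genes overall (0.0765%). Each window ran from 250 bases before to 50 after the annotated start. Of the 7, Canx and Dnajc3 fell on both scales, and Hspa5, Hsp90b1, Calr, Creld2 and Xbp1 did not. The stretches below lie before the start of Canx (chr10:35158044-35158107, minus strand) and Dnajc3 (chr15:102432509-102432577, plus strand), written along the gene's strand with the fixed letters of the motif in capitals.
Canx: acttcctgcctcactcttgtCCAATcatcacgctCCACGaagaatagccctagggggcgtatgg
Dnajc3: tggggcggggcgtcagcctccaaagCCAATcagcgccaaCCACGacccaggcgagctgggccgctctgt
The cyclic AMP response element TGACGTCA, its own reverse complement, was found in 549 genes (2.0%), among them Scg2 and Vgf of 20 granule genes with a promoter and Sst of the 9 genes of other hormone cells (11.1%). Scg2 and Vgf hold it at chr9:88256957-88257014 and chr12:25277078-25277135, both on the minus strand, and are shown because they moved in opposite directions. The capitals mark the element.
Scg2: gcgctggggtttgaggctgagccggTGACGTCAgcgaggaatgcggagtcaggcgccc
Vgf: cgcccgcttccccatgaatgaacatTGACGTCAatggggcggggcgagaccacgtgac
These matches describe the sequence only.

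Stress and early response genes were mostly lower as deposited, with few calls on both scales. Of 24 immediate early transcription factors and their feedback genes, 12 were lower as deposited (31.4% of all genes) and 3 fell on both scales (11.9% of all genes): Fos, Egr1 and Atf3. With trend and robust eBayes settings none of the 3 fell on both scales. Egr1, a zinc finger factor, read 11.28, 11.39 and 11.36 on treated, 9.03, 9.58 and 10.28 on withdrawal and 10.07, 9.00 and 10.09 on untreated arrays, so the treated arrays were tight and high and the others overlapped each other. Its difference was -1.71 ± 0.32 (SE, n = 3 against 3, limma adjusted p = 0.00268) and -0.95 after quantile normalization. Fos, which pairs with Jun, differed by -1.74 and -1.03, but a second probe set of Fos was called the opposite way on both scales. After quantile normalization Fos and Egr1 lost their calls without treated replicate 2 or 3 or withdrawal replicate 1 or 2, with adjusted p up to 0.107 and 0.113. Atf3, a stress-induced repressor, lost it there without any of these or without untreated replicate 1 or 3 (up to 0.110). Nr4a2, an orphan nuclear receptor, rose by 0.71 and 0.64; leaving out single arrays ended its call in 2 of 9 fits as deposited and in 5 after quantile normalization. Of 20 genes of the ATF4 stress response, 14 were lower as deposited and 2 fell on both scales. That number was 0 without withdrawal replicate 2, and 1 without treated replicate 2 or 3, withdrawal replicate 1 or untreated replicate 1 or 3. It was 5 without withdrawal replicate 3, 16 without treated replicate 1 and 12 with array weights. Over all 14217 genes 1858 fell without treated replicate 1 and 2145 with array weights, against 1698 reported. Of 16 heat shock genes 10 were lower as deposited and 1, the Hsp70-family gene Hspa4, fell on both scales (-0.66 and -0.40), with calls lost in 1 of 9 fits as deposited and 5 after quantile normalization. The heat shock median was -0.69 as deposited and -0.09 under cyclic loess.

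Genes regulated by PPAR receptors did not move one way. Of 28 measured, 3 rose and 2 fell (7.74% and 11.9% of all genes), with medians of 0.01 and 0.12. Fabp4, the fatty acid binding protein of fat cells, macrophages and capillaries, read 9.50, 8.85 and 8.48 on treated and 7.80, 7.60 and 7.86 on withdrawal arrays and fell by 1.19 (limma adjusted p = 0.00246) and 0.69. Pdk4, a kinase that shuts off pyruvate oxidation, read 7.96 to 8.47 on treated and 7.09 to 7.56 on withdrawal arrays and fell by 0.89 and 0.53. After quantile normalization Pdk4 did not pass without treated replicate 2 or withdrawal replicate 1 or 2 (adjusted p up to 0.129). Cyp4a1, a fatty acid omega-hydroxylase, rose from 6.08 to 6.45 on treated arrays to 6.81 to 7.28 on withdrawal arrays, by 0.80 and 0.92 (limma adjusted p = 0.00280 and 0.00377). Ucp3, a mitochondrial carrier, and Cpt1a, the gate of fatty acid entry into mitochondria, rose by 0.50 and 0.49 as deposited. Ucp3 did not pass as deposited without withdrawal replicate 2 (0.0576), nor Cpt1a without treated replicate 1 or withdrawal replicate 1 or 2 (up to 0.138). Cd36, a fatty acid transporter, read 7.54 to 8.21 on treated and 7.40 to 7.62 on withdrawal arrays, and its groups overlapped. The drug's receptor gene Pparg was dim, at 5.12 to 5.41 on treated and 5.18 to 5.39 on withdrawal arrays, with a difference of 0.01 (adjusted p = 0.971).

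Of 18 cholesterol synthesis genes and SREBP2 targets 6 fell and none rose (11.9% and 7.74% of all genes), with medians of -0.38 as deposited and -0.21 after quantile normalization. Insig1, which holds the sterol sensor in the ER, read 8.58, 8.50 and 8.80 on treated, 7.60, 7.41 and 7.59 on withdrawal and 8.47, 8.13 and 8.36 on untreated arrays. Its withdrawal arrays lay clear of both other groups, and it fell by 1.09 ± 0.13 (SE, n = 3 against 3, limma adjusted p = 0.000723) and 0.67. Idi1, an isomerase of the pathway, read 7.43 to 7.99 on treated, 6.81 to 7.08 on withdrawal and 7.98 to 8.49 on untreated arrays. It was lower on withdrawal than on untreated arrays as well (-1.27, limma adjusted p = 0.0195). The sterol enzyme genes Mvd, Msmo1, Cyp51 and Sc5d fell by 0.67 to 0.89 as deposited. Insig1 alone of the 6 kept its call without any 1 array. Under cyclic loess Insig1 and Mvd were the 2 of these 6 that passed, and 2 further list genes were called higher. After quantile normalization 1 list gene was called higher. The count that fell on both scales was 1 without withdrawal replicate 2 and 2 without withdrawal replicate 3. It was 3 without treated replicate 1 or 3 or untreated replicate 1 or 3 or with all untreated arrays left out. In the remaining fits without 1 array it was 4 or 5. Of 20 genes of fatty acid and triglyceride synthesis 2 fell and 1 rose (11.9% and 7.74% of all genes), with medians of -0.32 and -0.15. Fads1, a desaturase, fell by 0.92 and 0.55 and kept its call in every fit without 1 array. Srebf1, the regulator SREBP1, fell by 0.71 and 0.35. Srebf1 did not pass after quantile normalization in 6 of the 9 fits, among them each without a withdrawal array (adjusted p up to 0.0963).

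Genes of energy metabolism were broadly lower as deposited and near the middle of all genes after normalization. Of 49 respiratory chain and ATP synthase genes, 46 were called lower as deposited (31.4% of all genes), with a median of -0.79. After quantile normalization the median was -0.12, and 3 fell on both scales (6.12%, against 11.9% of all genes). Of these, Ndufs1, a complex I subunit, held without any 1 array (the count was 1 without treated replicate 3 or withdrawal replicate 2). It read 9.22, 8.35 and 8.41 on treated and 7.53, 7.49 and 7.73 on withdrawal arrays, a difference of -1.08 ± 0.21 (SE, n = 3 against 3, limma adjusted p = 0.00311) and -0.63. Of 16 ribosomal protein genes, 15 were lower as deposited and none on both scales, and 5 were higher under cyclic loess, where their median was 0.22. In glycolysis 3 of 16 genes fell (11.9% of all genes): Eno2, Pklr and Slc2a1. Eno2, the neuronal and endocrine enolase, read 8.58, 8.72 and 8.72 on treated and 7.78, 7.45 and 7.63 on withdrawal arrays and fell by 1.05 and 0.62. Pklr, pyruvate kinase of liver and islets, and Slc2a1, a glucose transporter, fell by 0.64 and 0.67 as deposited. After quantile normalization Pklr did not pass without treated replicate 2 or withdrawal replicate 2 (adjusted p up to 0.0904), nor Slc2a1 without treated replicate 2 or withdrawal replicate 1 (up to 0.0808).

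Of 13 measured lymphocyte markers, 6 rose, 7 did not pass and none fell (7.74% of all genes rose and 11.9% fell), and the median was 0.35 as deposited and 0.29 after quantile normalization. Il7r, the interleukin-7 receptor of T cells, read 5.84, 5.35 and 5.88 on treated, 6.67, 6.83 and 6.80 on withdrawal and 6.48, 6.82 and 6.46 on untreated arrays. The treated arrays were lowest, with a difference of 1.08 ± 0.16 (SE, n = 3 against 3, limma adjusted p = 0.00107) and 1.13. The T cell receptor chains Cd3e and Cd3g rose by 0.88 and 0.69 as deposited. The coreceptor Cd4 rose from 5.92 to 6.15 on treated arrays to 6.45 to 6.61 on withdrawal arrays, by 0.48 and 0.54. Cd8a and the B cell gene Ms4a1 rose by 0.42 and 0.61. Neither passed on both scales without withdrawal replicate 1 or 2 or without 1 of the treated arrays (replicate 2 for Cd8a, 1 or 3 for Ms4a1), with adjusted p up to 0.105 and 0.135. The count of 6 was 4 without withdrawal replicate 1 or 2, and 3 of the 5 markers then left where probe sets below the median brightness were left out. As a list these genes were dim, and the list mean was 5.46 to 5.52 on treated, 5.77 to 5.92 on withdrawal and 5.65 to 5.77 on untreated arrays. In the brightness decile from 5.28 to 5.78, 14.6% of probe sets rose on both scales.

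Macrophage and matrix genes depended on treated replicate 1. Of 20 macrophage and myeloid markers, 3 rose on both scales (7.74% of all genes) and 10 were called higher after quantile normalization (12.3% of all genes), with medians of 0.42 and 0.79. Aif1, an actin-binding protein of macrophages, read 7.19, 7.52 and 7.42 on treated and 8.07, 8.28 and 7.95 on withdrawal arrays and rose by 0.73 ± 0.14 (SE, n = 3 against 3, limma adjusted p = 0.00318) and 1.07. Ms4a7 rose by 0.63 and 0.57. Itgam, the integrin CD11b, rose by 0.49 and 0.53, and did not pass on either scale without treated replicate 2 or withdrawal replicate 1 or 2 (adjusted p up to 0.0895). Csf1r, the receptor for a macrophage growth factor, read 8.73, 6.90 and 7.82 on treated and 8.56, 8.54 and 8.63 on withdrawal arrays, so treated replicate 1 overlapped. It did not pass as deposited (0.76, limma adjusted p = 0.0908) but did after quantile normalization (1.24, adjusted p = 0.00704). The list mean was 8.02, 6.54 and 7.19 on treated and 7.57, 7.66 and 7.76 on withdrawal arrays. Without treated replicate 1, 17 of the 20 rose on both scales, and with array weights 13 did. Over all 14217 genes 1550 and 1541 rose in these 2 fits, against 1100 reported.

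The 34 genes of stellate cells and extracellular matrix showed the same split. Their list mean was 9.81, 8.42 and 9.09 on treated and 9.20, 9.24 and 9.44 on withdrawal arrays, so treated replicate 1 was the highest of the 6 and the other treated arrays the lowest. On both scales 1 gene rose, and 23 were called higher after quantile normalization (12.3% of all genes), with medians of 0.20 and 0.77. The gene was Fbn1, the microfibril protein fibrillin, at 8.10, 6.99 and 7.21 on treated and 8.30, 8.41 and 8.40 on withdrawal arrays (differences 0.94 and 1.34, limma adjusted p = 0.00982 and 0.00107). Col6a3, a chain of collagen VI, read 9.20, 7.58 and 8.62 on treated and 9.00, 9.12 and 9.39 on withdrawal arrays and did not pass as deposited (0.70, adjusted p = 0.0942) but did after quantile normalization (1.28, adjusted p = 0.00416). Without treated replicate 1, 16 of the 34 rose on both scales, without treated replicate 3, 2 did, and with array weights 8 did. Over all 14217 genes 1550, 901 and 1541 rose in these 3 fits. Duct markers were also highest on that array, with a list mean of 9.46 against 8.41 to 8.73 on the other 5. Of 16 duct genes 2 rose and none fell on both scales (7.74% and 11.9% of all genes). As deposited 5 were called lower (31.4% of all genes), and the medians were -0.55 and -0.01. Among the 2 was Cftr, the chloride channel, which rose from 6.09 to 6.68 on treated arrays to 6.97 to 7.23 on withdrawal arrays. The count that rose was 4 without treated replicate 1 and 1 without treated replicate 2 or withdrawal replicate 2 or 3. The part of cell composition in these results was not tested.

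**Figure D4:**
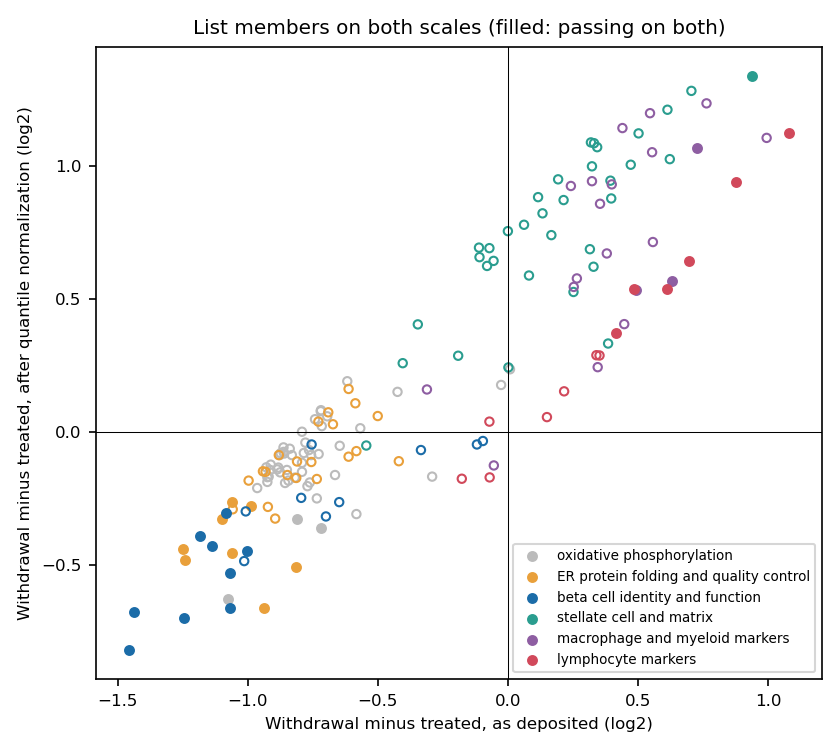
Difference between withdrawal and treated arrays for each gene of 6 lists, as deposited (horizontal) and after quantile normalization (vertical), both in log2; filled circles passed on both scales. Respiratory chain and ER genes lie near 0 vertically and near -0.8 horizontally, matrix and macrophage genes lie higher vertically than horizontally, and beta cell genes lie below 0 on both axes.

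Other cell type lists gave few calls. None of 23 acinar, 14 endothelial or 10 Schwann cell and nerve genes passed on both scales. Under cyclic loess, however, 21 of the 23 acinar genes were called higher, with a median of 0.86 against -0.05 as deposited. Of 4 erythrocyte genes 1 fell (11.9% of all genes). This gene, Hbb, a haemoglobin chain, read 10.57, 9.60 and 10.05 on treated and 8.64, 8.41 and 8.48 on withdrawal arrays. Its difference was -1.57 ± 0.23 (SE, n = 3 against 3, limma adjusted p = 0.00115) and -0.90. Of 16 genes normally kept low in beta cells 3 rose and none fell (7.74% and 11.9% of all genes). After quantile normalization 7 were called higher (12.3% of all genes), and under cyclic loess 8 (1930 of all 14217 genes). The count that rose on both scales was 0 without treated replicate 2 or 3 or withdrawal replicate 1 or 2. It was 1 without withdrawal replicate 3 or untreated replicate 1 or 3, and 6 without treated replicate 1. Of 16 regulators of apoptosis 1 rose and 1 fell (7.74% and 11.9% of all genes). Bid, which relays death receptor signals to mitochondria, rose from 5.92 to 6.58 on treated arrays to 6.81 to 7.10 on withdrawal arrays, by 0.71 and 0.83. The caspase gene Casp8 fell by 0.52 and 0.51. Without withdrawal replicate 2 the number of these regulators that fell was 0. Of 18 interferon-induced genes none passed on both scales.

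**Figure D5:**
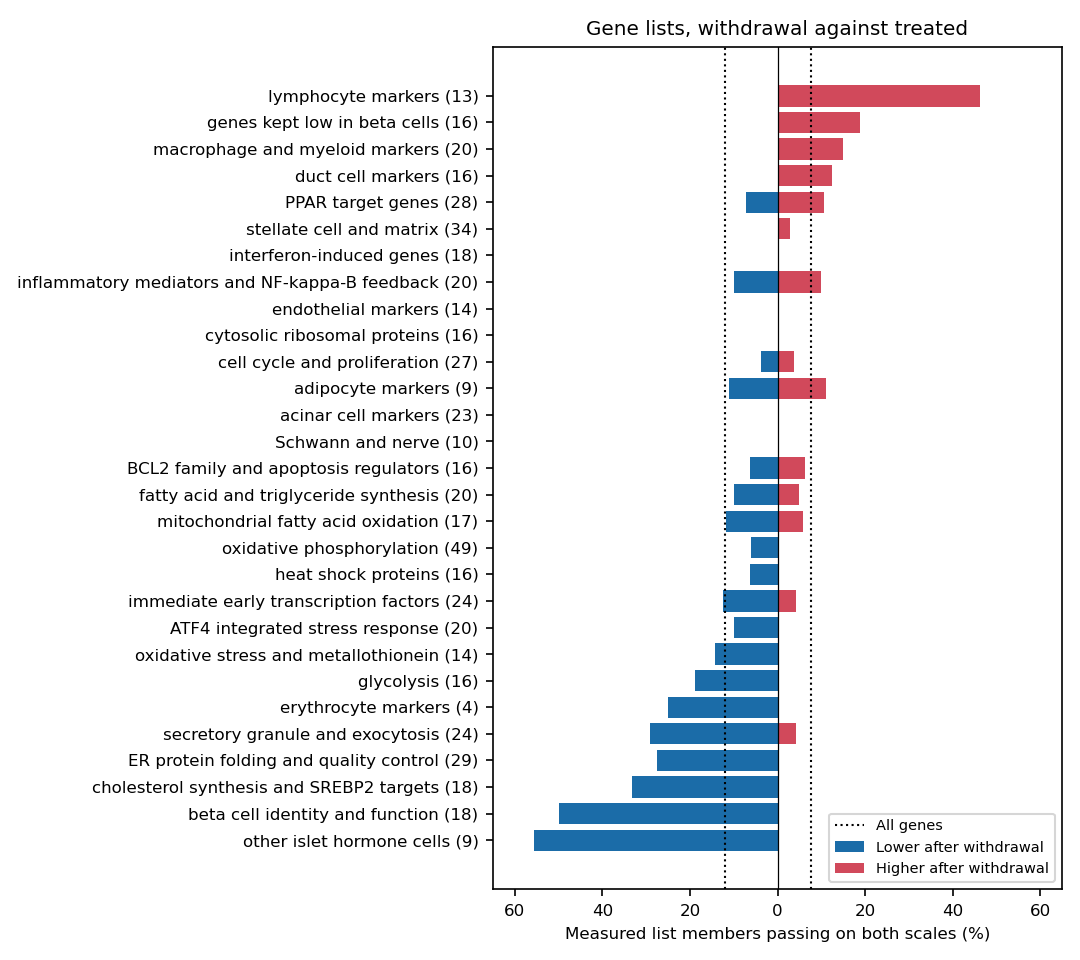
Share of the measured genes of each list, in percent, that fell (blue, to the left) or rose (red, to the right) on both scales; numbers in brackets are measured genes. Dotted lines mark the shares over all genes, 11.9% lower and 7.74% higher, which are not matched for the brightness of each list. Beta cell genes (9 of 18) and genes of other hormone cells (5 of 9) extend furthest to the left, and lymphocyte markers (6 of 13) furthest to the right.

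Few genes differed between withdrawal and untreated islets. As deposited, 28 probe sets (0.0902%) differed between withdrawal and untreated arrays, and 73 (0.235%) after quantile normalization. Between treated and untreated arrays 6588 (21.2%) and 4391 (14.1%) differed. The groups share arrays across these comparisons and also differ in age, so the counts are set side by side only. In spread, bacterial controls and the actin difference the untreated arrays lay near the withdrawal arrays, and most treated arrays lay apart from both. The part of this in the counts was not tested. Ambp, the precursor of a circulating protease inhibitor, read 6.30, 6.03 and 6.19 on treated, 6.83, 6.53 and 6.82 on withdrawal and 8.82, 8.92 and 8.95 on untreated arrays. It rose by 0.55 and 0.63 after withdrawal (limma adjusted p = 0.00572 and 0.00706) but differed from the untreated arrays by -2.17 (adjusted p = 1.47e-05). Rgs16, a brake on G protein signalling, read 7.50 to 7.60 on treated, 7.59 to 8.09 on withdrawal and 9.24 to 9.83 on untreated arrays. Its difference from treated arrays did not pass as deposited (0.25, adjusted p = 0.274) but passed after quantile normalization (0.58, adjusted p = 0.0131; 0.0504 without withdrawal replicate 2) and under cyclic loess (0.79, adjusted p = 0.00608). Txnip, a glucose-induced inhibitor of thioredoxin, read 10.50 to 10.72 on treated, 10.46 to 10.93 on withdrawal and 11.69 to 12.27 on untreated arrays. Its difference from treated arrays was 0.05 (limma adjusted p = 0.856) as deposited and 0.84 (adjusted p = 0.00126) after quantile normalization. Trh, the thyrotropin-releasing hormone precursor, ran the other way from its receptor. It read 9.56, 8.38 and 9.09 on treated, 7.86, 7.82 and 7.94 on withdrawal and 5.86 to 6.56 on untreated arrays, with the withdrawal arrays between the other groups. It fell by 1.13 as deposited, and after quantile normalization by 0.62 (adjusted p = 0.0482), where the call was lost without treated replicate 1 or 3, untreated replicate 3 or any 1 withdrawal array (adjusted p up to 0.136).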

How the data were processed

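Islet RNA was measured on 9 Affymetrix arrays, 3 in each of 3 groups taken from the labels. The deposited values were read as log2 expression values, since all were positive and within the range of such summaries; the submitters' processing notes name RMA and MAS5, and their roles and versions are not given in the sources used here. Of 31099 probe sets, 57 controls were set aside and 31042 entered a linear model with group terms over the 9 arrays (limma 3.58.1, moderated by eBayes, under R 4.3.3; Benjamini-Hochberg adjustment), once as deposited and once after quantile normalization. The call rule was an adjusted p under 0.05. No depth applies to arrays; their number limits the precision, and p-values measure the spread between these samples. Simulated data were used to check the fit. Of the probe sets, 20826 had 1 gene symbol, 436 several and 9780 none listed; the symbols were updated through RefSeq's GRCr8 gene table (20758 by gene number, 2 by accession, 66 kept), and each of 14217 genes was represented by its probe set of highest mean. The 29 lists held 543 measured genes.

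The members and lists were chosen with earlier results of these data known. Named genes were the 12 highest and 12 lowest of 2367 eligible genes (passing on both scales, groups not overlapping, mean log2 not in the lowest 33.3%, no provisional symbol), the 4 genes per list of lowest p as deposited, and 16 fixed genes, not all of which are printed. Further list members that passed on both scales, and Iapp, Hspa5, Hsp90b1, Csf1r and Col6a3, were named after their values were seen. Alternatives were filters on dim probe sets, trend and robust eBayes, array weights, a fit of the 6 arrays, a replicate block, each array left out, a size floor, centring and, added after the data were seen, cyclic loess. Replicate numbers did not pair arrays. Promoter windows came from RefSeq's GRCr8 table. Figures were drawn with matplotlib 3.10.9 in Python 3.11.15.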

Additional observations from a re-analysis of the deposited data

How the results depend on the processing

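The counts of probe sets called kept within 1.5 times of their reported values under the milder filter on dim probe sets, trend and robust eBayes, array weights and a fit of only the 6 arrays, on either scale and on both. Centring, run on the deposited values, and cyclic loess, set against quantile normalization, gave 11042 and 7387. Counts within lists moved more: with array weights 12 of 20 ATF4 response genes fell (2 reported), and 8 of 34 matrix genes (1 reported) and 13 of 20 macrophage markers (3 reported) rose. Over all 14217 genes 2145 fell (1698 reported) and 1541 rose (1100 reported) with these weights. The stricter filter, at the median brightness, gave 4758 after quantile normalization and 3757 on both scales. A floor of 1 on the log2 scale gave 732 as deposited, 453 after quantile normalization and 282 on both scales, of which 35.8%, 87.2% and 80.9% were higher, against 33.8%, 49.8% and 46.5% without it. With single arrays left out, counts ranged from 6200 to 11379 as deposited, 3214 to 8572 after quantile normalization and 2689 to 7286 on both scales. The lowest were those without withdrawal replicate 2, followed by withdrawal replicate 1 (6843, 4009 and 3267), and the highest those without treated replicate 1.

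Same-numbered arrays did not deviate together (correlations -0.277 to 0.459 as deposited, -0.211 to 0.383 after quantile normalization), and with the replicate number as a block the counts were 11296, 7917 and 6340; 5 ATF4 response genes and 5 immediate early genes then fell on both scales.

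Under cyclic loess Gcg (0.16), Hsp90b1 (0.19), Hspa5 (0.04), Iapp (0.59), Ins1 (0.84) and Ins2 (0.82) turned positive. Hsp90b1 was 0.03 after quantile normalization. Pparg, near 0 throughout, was -0.07 under cyclic loess, -0.06 after quantile normalization, -0.03 with centring and -0.06 to 0.09 with single arrays left out. Txnip ranged from -0.10 to 0.14 with single arrays left out. The cause of these changes was not tested. Probe sets at the top of the scale or near background limit what these arrays can show.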

Other observations

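Several gene families, picked after the data were seen, are given as values, and not all that were examined are printed. The potassium channel family shares Kcnj11 with the beta cell list. Of 73 mitochondrial ribosomal protein genes (Mrpl and Mrps), 20 fell and 1 rose on both scales, with a median difference between withdrawal and treated arrays of -0.56 as deposited and -0.22 after quantile normalization. Of 37 proteasome subunit genes 5 fell and none rose (medians -0.77 and -0.11), and of 23 mitochondrial import genes (Timm and Tomm) 4 fell and none rose (medians -0.49 and -0.21). Potassium channel genes were more evenly split: of 75, 13 rose and 7 fell, with medians of 0.13 and 0.11. Among dim families, 5 of 13 vomeronasal receptor genes rose and none fell, at a median log2 level of 4.42. Of 10 taste receptor genes 3 rose and 1 fell, at a median level of 4.67. Over all genes 7.74% rose and 11.9% fell.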
